A study of Mus musculus with 16 samples.

Results

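The 71 genes described here carry platform symbols of the cytosolic ribosomal protein families, that is Rpl or Rps followed by a digit or by p. Symbols of the Rps6k kinases and of pseudogenes (-ps) were left out. They are 71 of the 17097 genes with a probe set assigned to a single gene, and each stands on its brightest probe set, by mean signal across the 16 arrays. By role, 38 encode proteins of the large (60S) subunit, 3 encode the acidic stalk proteins (Rplp0, Rplp1 and Rplp2) and 23 encode proteins of the small (40S) subunit. These 64 core genes are 64 of 76 on a list of core subunit genes. The other 12 were not analysed here. Another 6 members are paralogs of core genes (Rpl3l, Rpl7l1, Rpl22l1, Rpl36al, Rpl39l and Rps27l), and Rps19bp1 matches the symbol pattern although it encodes a nucleolar regulator of SIRT1 rather than a ribosomal protein. The symbol rule itself used no measured value, but it was set with earlier results of these data known, and the choice of probe set used the signal.

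Total RNA came from naive T cells sorted from mice of C57BL/6 background. There were 2 arrays each of Tsc1-deficient and wild-type CD8 cells at 0 h, 3 arrays each of Tsc1-deficient and wild-type CD4 cells stimulated for 4 h with plate-bound anti-CD3 and anti-CD28, and 3 arrays each of Tsc1-deficient and wild-type CD4 cells at 0 h. The labels do not say how or in which cells Tsc1 was deleted, and one sentence of the treatment text names a HIF1a-deficient strain where each genotype entry names Tsc1. Nothing in the labels says that replicate arrays came from separate mice, so the p-values speak only of array-to-array spread, perhaps a technical one. A change here is 1 group's mean log2 signal minus another's, and a gene is called where limma's p-value, adjusted by Benjamini-Hochberg over all 17097 genes, is under 0.05.

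Signal of Tsc1 itself was lower in Tsc1-deficient than in wild-type cells by a log2 difference of -0.55 in CD8 cells, -1.06 in CD4 cells at 4 h and -0.83 in CD4 cells at 0 h (limma adjusted p = 0.00892, 4.63e-06 and 3.77e-05). The 3 CD8 markers (Cd8a, Cd8b1, Runx3) summed to 12.98 to 13.18 log2 units on CD8 arrays and to 7.65 to 9.71 on CD4 arrays. Markers of several other cell types moved with genotype. The 5 neutrophil markers (S100a8, S100a9, Ngp, Camp, Ltf) summed to 7.997 to 10.24 on the 8 Tsc1-deficient arrays, against 5.86 to 8.23 on the 8 wild-type arrays. All 5 were above the table median in Tsc1-deficient groups, and up to 2 of 5 lay below it in wild-type groups. Limma called 0 of 5 in CD8 cells, 4 of 5 in CD4 cells at 4 h and 1 of 5 in CD4 cells at 0 h. B cell markers summed to 8.58 to 8.65 in Tsc1-deficient, against 7.73 to 7.88 in wild-type CD8 cells. Limma also called 1 of 3 NK markers higher in each of the 3 genotype comparisons, and 1 of 3 B cell markers higher in CD8 cells and in CD4 cells at 0 h. In CD4 cells at 4 h, 3 of 4 monocyte and macrophage markers were higher and 2 of 3 pan T markers lower. In CD4 cells at 0 h, 2 of 3 CD8 markers were lower. The part of these cells in the results was not tested. The 3-prime minus 5-prime difference of the Gapdh control was 0.96 on Tsc1-deficient CD4 4 h replicate 1 and 0.64 on Tsc1-deficient CD8 replicate 2, and 0.02 to 0.40 on the other 14 arrays. In bulk samples fewer cells of a type and less RNA per cell cannot be told apart.

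Most ribosomal proteins are made in equal numbers for each ribosome, and ribosomal protein mRNAs are among the most abundant in a lymphocyte. Most of them start with a run of pyrimidines at the cap, the 5-prime terminal oligopyrimidine (TOP) element, through which mTORC1 raises their translation. Tsc1, with Tsc2, restrains mTORC1, and the small subunit protein encoded by Rps6 is the classical substrate of the S6 kinases that mTORC1 activates. Arrays of total RNA measure mRNA level and neither translation nor phosphorylation.

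The pyrimidine run is visible in the genome around the start sites of several members. RefSeq promoter windows (build GRCm38.p6, 250 bases before to 50 after the start) were available for 57 of the 71 genes as 68 windows. A run of 8 or more C or T on the gene's strand reached within 20 bases of the start in 30 of the 68 windows (44.1%) and in 27 of the 59 windows of core genes (45.8%), against 21.0% of all 32851 windows. Runs of 8 or more purines at the same place were found in 10.3% of member windows, against 23.3% of all windows. The motif CCGGAAG, the site class of ETS factors, was searched on both strands over the whole window and was found in 36.8% of member windows, against 8.86% of all windows. Windows of one gene overlap, so these shares are descriptions. The windows below run from 60 bases before to 20 bases from the start onward, 5′ to 3′ on the gene's strand, with pyrimidine runs of at least 8 in capitals. They are shown for Rps6 and for 2 paralog pairs and a lone paralog whose values follow.
Rps6 (chr4:86857348-86857427, minus strand): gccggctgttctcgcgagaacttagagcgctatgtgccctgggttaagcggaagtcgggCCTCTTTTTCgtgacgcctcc
Rpl22 (chr4:152325666-152325745, plus strand): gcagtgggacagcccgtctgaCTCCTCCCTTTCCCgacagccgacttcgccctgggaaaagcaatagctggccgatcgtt
Rpl22l1 (chr3:28805448-28805527, plus strand): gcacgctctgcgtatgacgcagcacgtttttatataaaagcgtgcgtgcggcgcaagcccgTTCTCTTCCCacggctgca
Rps27l (chr9:66946026-66946105, plus strand): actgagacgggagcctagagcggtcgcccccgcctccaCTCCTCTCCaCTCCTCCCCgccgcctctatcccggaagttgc
Rpl36a (chrX:134585594-134585673, plus strand): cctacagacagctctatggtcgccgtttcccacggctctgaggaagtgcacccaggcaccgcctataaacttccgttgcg
Rpl36al (chr12:69184048-69184127, minus strand): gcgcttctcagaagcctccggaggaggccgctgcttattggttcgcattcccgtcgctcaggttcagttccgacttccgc
The run lies at the annotated start in Rps6 and Rpl22l1, ahead of it in Rps27l, and further upstream in the Rpl22 window shown. No run of that length is in the windows of Rpl36a and Rpl36al, which says only that these letters are not there.

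Core ribosomal protein genes kept almost the same signal in all 6 groups. Of the 64, 62 had a mean log2 signal of at least 12 (12.1 to 13.8, where the highest value in the table is 14.01 and its median 3.36). Signals of different probe sets were not set against each other as RNA levels. Over all 16 arrays the range of a gene's signal was under 0.5 for all 62 genes, with a median range of 0.20. None of the 62 was called in any of the 9 comparisons by limma. At an unadjusted p under 0.05 the count was 0 of 62 in 8 comparisons and 1, Rpl11, after stimulation of Tsc1-deficient cells. Each of the 62 changes had a 95% interval inside -0.5 to 0.5 in each comparison. Among 57 other genes with a mean signal of at least 12, limma called 19 (33.3%) after stimulation in wild-type and 22 (38.6%) in Tsc1-deficient CD4 cells. Outside stimulation these 57 were seldom called either. Between genotypes the count was 0 in CD8 cells, 4 (7.02%) in CD4 cells at 4 h and 2 (3.51%) at 0 h. Between lineages it was 2 in Tsc1-deficient and 0 in wild-type cells, and it was 0 for both differences of effects. Of all genes 0.117% to 35.3% were called, depending on the comparison. Whether sets as near the top of the scale as most core sets register a change as fully was not tested. The deposited signals were scaled between arrays, and the 62 outnumber the 57 other genes this bright. Whether a change shared by the whole set would remain after that scaling was not tested either.

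Rps6, the S6 kinase substrate, was flatter than most of them on its brightest probe set, with a range of 0.11 over the 16 arrays against the median range of 0.20. A dimmer set of Rps6 fell after stimulation, as described with the other probe sets. The brightest set read 13.60 and 13.55 in Tsc1-deficient CD8 cells, against 13.61 and 13.58 in wild-type CD8 cells. After 4 h it was 13.60, 13.59 and 13.61 in Tsc1-deficient and 13.58, 13.61 and 13.58 in wild-type CD4 cells. At 0 h it was 13.60, 13.60 and 13.66 in Tsc1-deficient and 13.60, 13.65 and 13.61 in wild-type CD4 cells. The groups overlapped in each pair, and the fitted changes with genotype were -0.02, 0.01 and -0.0017 (limma adjusted p = 0.951, 0.972 and 0.996).

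In the comparison of genotypes, most core genes leaned to a slightly lower signal in Tsc1-deficient cells, by amounts below what single genes could resolve. In CD8 cells 48 of the 62 changes were negative (77.4%), in CD4 cells at 4 h 47 (75.8%) and in CD4 cells at 0 h 48 (77.4%). Among the 57 other genes with a mean signal of at least 12, 42.1%, 63.2% and 43.9% were negative in the same order. The median changes were -0.0313, -0.0485 and -0.0319 for the 62 and 0.0316, -0.0391 and 0.0129 for the 57, so at 4 h the other bright genes leaned lower too. Small subunit genes were negative for 20 of 23, 17 of 23 and 22 of 23 in the same order, and large subunit genes for 29, 29 and 26 of 38. The largest negative changes were -0.21 for Rpl12 in CD8 cells, -0.16 for Rpl12 in CD4 cells at 4 h and -0.14 for Rps25 in CD4 cells at 0 h. Rpl12 helps form the base of the stalk, and Rps25 serves in internal initiation. Over all 71 members the median change was -0.030, -0.052 and -0.026, where the median over all genes was -0.006, -0.001 and 0.010. Its sign was the same under 3 other scalings of the arrays, but in CD4 cells at 0 h it was -1e-04 after quantile normalization and in CD8 cells -0.0042 after cyclic loess. The pooled replicate SD of the per-array median of members was 0.0125. The genes of one array share its scaling and RNA, so the count of negative signs is not a count of independent measurements.

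**Figure D1:**
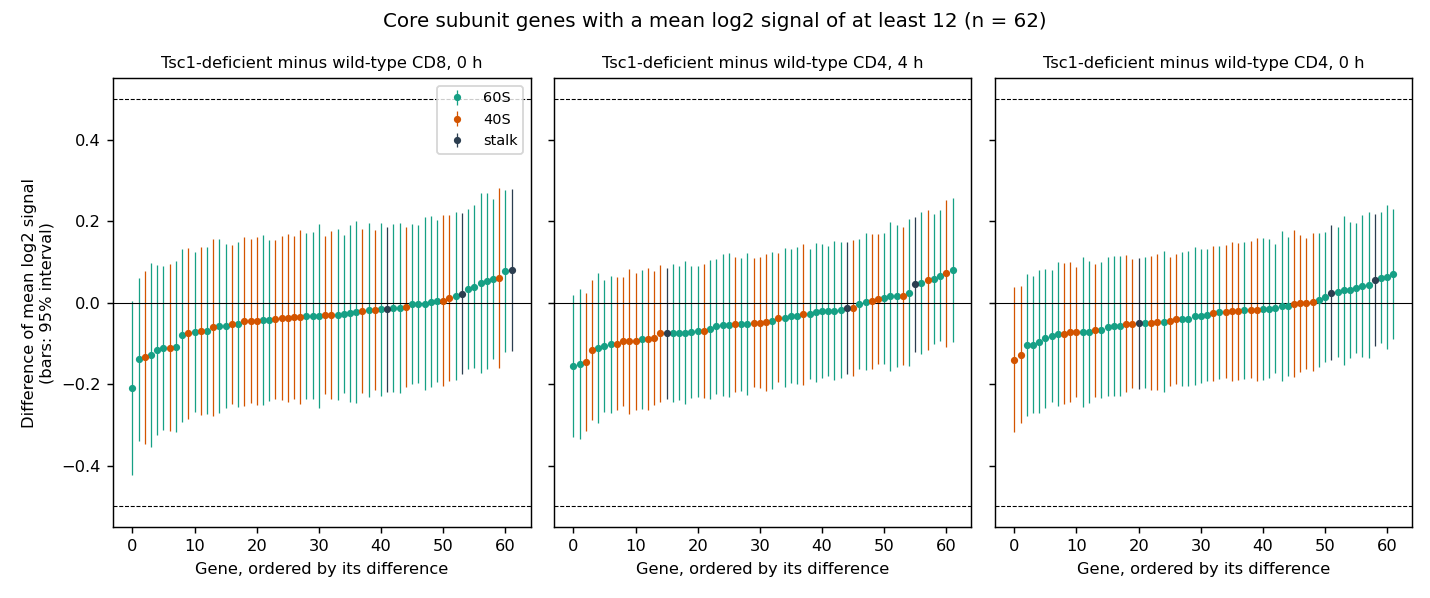
Difference of mean log2 signal, Tsc1-deficient minus wild-type, for the 62 core genes with a mean signal of at least 12, ordered by size in CD8 cells at 0 h, CD4 cells at 4 h and CD4 cells at 0 h. Bars are 95% intervals and dashed lines mark -0.5 and 0.5; all bars lie between the dashed lines, and most points lie below 0.

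The members called between genotypes on their brightest probe sets were paralogs. Limma called 2 of 71 members in CD8 cells, 1 in CD4 cells at 4 h and 2 in CD4 cells at 0 h, against 5.82%, 9.45% and 5.83% of all genes. The genes were Rpl22l1, lower in Tsc1-deficient cells in all 3 comparisons, and Rps27l, higher in CD8 cells and in CD4 cells at 0 h. With all probe sets of a gene averaged, 5 members were called in CD8 cells and 5 in CD4 cells at 4 h. The share of all genes called under that rule was not counted. The share of members called on the brightest sets, 2.82%, 1.41% and 2.82%, was below the share of all genes in each case, but it rests on 1 or 2 genes. It was not below in each case over all 133 probe sets of the members. There the share was 6.02%, 4.51% and 4.51%, against 4.57%, 7.59% and 4.40% of all single-gene probe sets. The 3 comparisons use separate arrays but 1 estimate of each gene's spread.

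**Figure D2:**
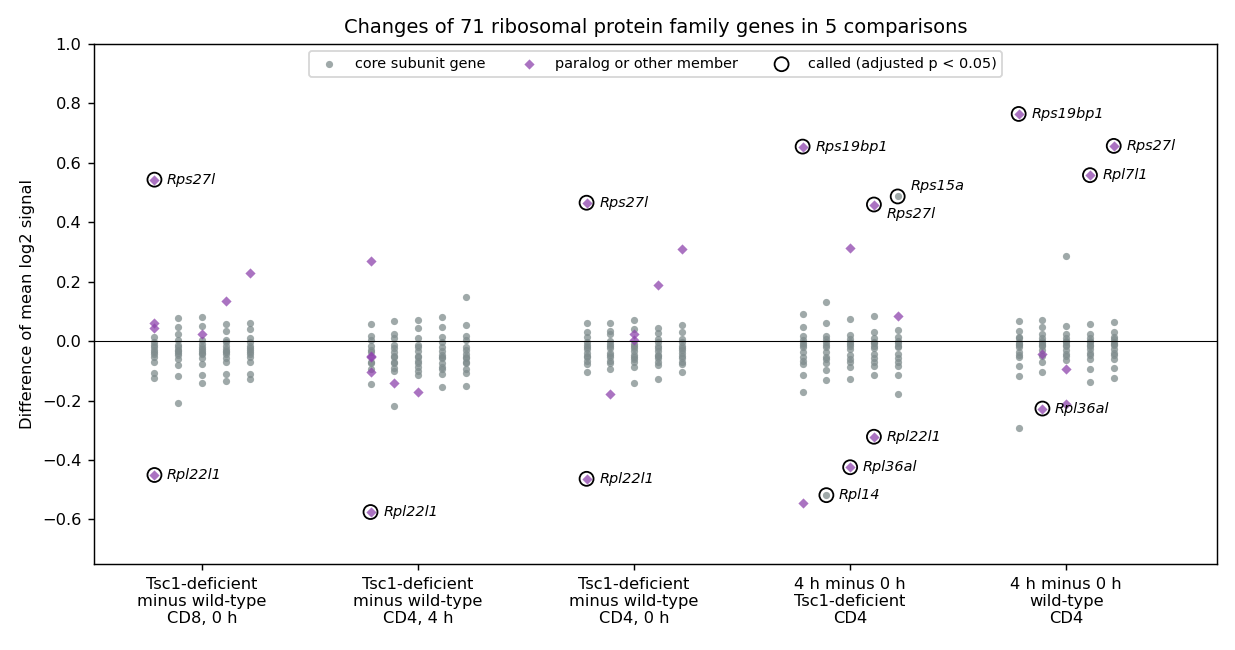
Difference of mean log2 signal for each of the 71 members in 5 comparisons, with core genes as circles, the 6 paralogs and Rps19bp1 as diamonds and called members ringed and named. Core genes crowd around 0, and the ringed points are paralogs, Rps19bp1, Rpl14 and Rps15a.

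Rpl22l1 was lower in Tsc1-deficient cells in both lineages and at both times. It encodes a close paralog of the large subunit protein of Rpl22. The Rpl22 protein is needed for development of αβ T cells and represses Rpl22l1 in mouse. Rpl22l1 signal was 11.94 and 11.91 in Tsc1-deficient CD8 cells, against 12.30 and 12.44 in wild-type CD8 cells. In CD4 cells at 4 h it was 11.53, 11.66 and 11.66 in Tsc1-deficient, against 12.12, 12.22 and 12.23 in wild-type cells. In CD4 cells at 0 h it was 12.04, 11.94 and 11.83 in Tsc1-deficient, against 12.46, 12.34 and 12.41 in wild-type cells. Tsc1-deficient and wild-type arrays did not overlap in any of the 3 pairs.

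The fitted differences of Rpl22l1 were -0.45 ± 0.11 in CD8 cells (0.732-fold), -0.58 ± 0.09 in CD4 cells at 4 h (0.671-fold) and -0.46 ± 0.09 in CD4 cells at 0 h (0.725-fold; SE). Limma's adjusted p was 0.0211, 0.000532 and 0.00418. In both CD4 comparisons Rpl22l1 was called under each alternative that could be fitted and with any 1 array left out. It has only 1 single-gene probe set, of suffix a, so these calls could not be checked on another set. Without Tsc1-deficient CD4 0 h replicate 3, the array with the highest mean neutrophil signal (7.46), the difference at 0 h was -0.41 (limma adjusted p = 0.0274). In CD8 cells the call was lost when any 1 of the 4 CD8 arrays was left out (-0.52 to -0.38, limma adjusted p = 0.0541 to 0.165) and when the CD8 arrays were fitted alone (limma adjusted p = 0.17). The difference of the genotype effect between CD8 and CD4 cells was 0.01 ± 0.14 (SE, limma adjusted p = 0.99).

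Rpl22 did not mirror its paralog on its brightest probe set. That set read 12.28 and 12.20 in Tsc1-deficient, against 12.27 and 12.27 in wild-type CD8 cells. It read 11.81, 12.08 and 11.90 in Tsc1-deficient, against 11.99, 12.06 and 12.08 in wild-type CD4 cells at 4 h. At 0 h it read 12.11, 12.15 and 12.07 in Tsc1-deficient, against 12.21, 12.16 and 12.17 in wild-type CD4 cells. The groups overlapped in CD8 cells and at 4 h and stood just apart at 0 h. The changes were -0.03, -0.11 and -0.07 (limma adjusted p = 0.922, 0.532 and 0.769), with 95% intervals that reached from -0.30 at the lowest to 0.19 at the highest. A second, dimmer probe set of Rpl22 did fall, as described with the other probe sets.

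Rps27l was higher in Tsc1-deficient cells. It encodes a close relative of the small subunit protein of Rps27 and is a p53 target gene. Its signal was 10.31 and 10.02 in Tsc1-deficient CD8 cells, against 9.49 and 9.76 in wild-type CD8 cells. In CD4 cells at 4 h it was 10.43, 10.62 and 10.39 in Tsc1-deficient, against 10.15, 10.20 and 10.29 in wild-type cells. In CD4 cells at 0 h it was 10.12, 9.96 and 9.97 in Tsc1-deficient, against 9.72, 9.42 and 9.52 in wild-type cells. Again no pair of groups overlapped.

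The fitted differences of Rps27l were 0.54 ± 0.14 in CD8 cells (1.46-fold), 0.27 ± 0.11 in CD4 cells at 4 h (1.20-fold) and 0.47 ± 0.11 in CD4 cells at 0 h (1.38-fold; SE). Limma's adjusted p was 0.029, 0.173 and 0.0208, so the difference at 4 h was not called. All 3 probe sets of Rps27l gave the same pattern, with 0.54 to 0.66 in CD8 cells and 0.47 to 0.51 in CD4 cells at 0 h, called on each of them. Leaving out wild-type CD4 0 h replicate 2 or 3 or Tsc1-deficient CD4 0 h replicate 1 ended the call at 0 h (0.40 to 0.45, limma adjusted p = 0.0816 to 0.106). In CD8 cells the call ended without replicate 1 of either genotype (0.40 and 0.41, limma adjusted p = 0.175 and 0.279), with the CD8 arrays fitted alone (limma adjusted p = 0.176) and with array weights (limma adjusted p = 0.059).

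The other 4 paralogs were not called between genotypes. Rpl36al, a retrogene copy of Rpl36a, differed by 0.02 in CD8 cells, -0.17 in CD4 cells at 4 h and 0.02 in CD4 cells at 0 h, where Rpl36a itself differed by 0.02, -0.04 and -0.03. Rpl7l1, which encodes a nucleolar factor of large subunit assembly, differed by 0.14, -0.05 and 0.19 in the same order, and Rpl7 by -0.02, -0.06 and -0.07. Rpl39l, known for its expression in testis, differed by 0.23, -0.14 and 0.31 with standard errors of 0.27 to 0.33, and Rpl39 by -0.02, 0.05 and -0.05. Rpl3l, known from striated muscle, read 1.82 to 2.39 on the 16 arrays, below the table median, and differed by 0.04, -0.05 and -0.18. Rpl3 differed by -0.02, 0.015 and 0.03.

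The per-array values behind these pairs were as follows. Rpl36al read 12.44 and 12.41 in Tsc1-deficient and 12.37 and 12.44 in wild-type CD8 cells. Rpl39l read 5.64 and 5.51 in Tsc1-deficient, against 5.25 and 5.44 in wild-type CD8 cells, and in CD4 cells it ranged from 4.43 to 6.15 with the genotypes overlapping at both times. Rpl3 read 12.90 to 13.16, Rpl7 12.86 to 13.09, Rpl36a 12.76 to 13.06 and Rpl39 13.27 to 13.46 over the 16 arrays, spans of under 0.5 for each of these 4 core partners.

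**Figure D3:**
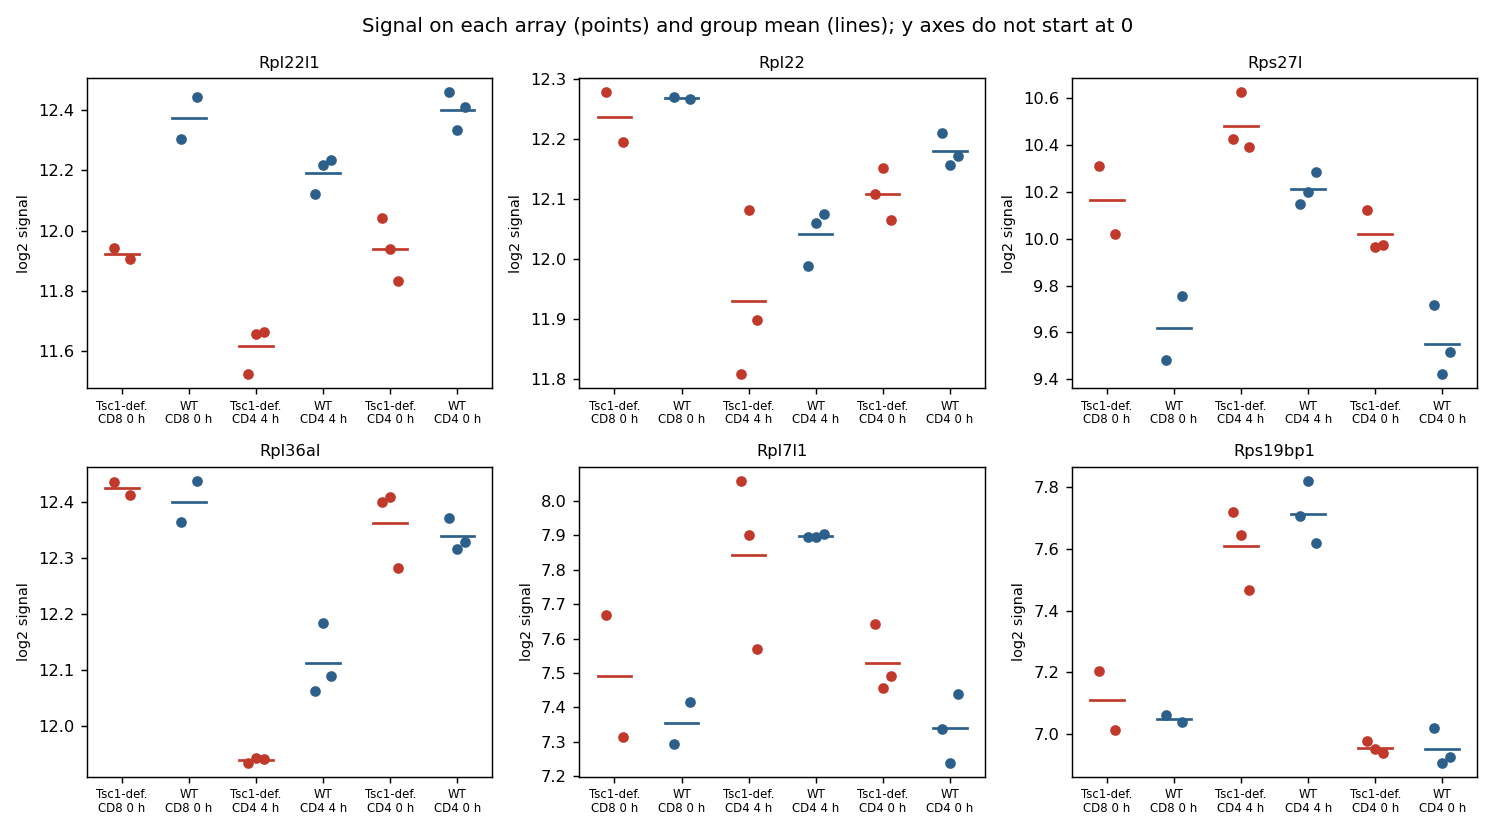
Log2 signal on each array (points) with the group mean (lines) for Rpl22l1, Rpl22, Rps27l, Rpl36al, Rpl7l1 and Rps19bp1 in 6 groups, Tsc1-deficient in red and wild-type in blue, on axes that do not start at 0. Rpl22l1 points of Tsc1-deficient cells lie below and Rps27l points above the wild-type points in each pair, and Rpl36al is lower and Rps19bp1 higher at 4 h than at 0 h in both genotypes.

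On the brightest probe sets, stimulation for 4 h changed many genes but few ribosomal protein genes. Limma called 6 of 71 members (3 higher, 3 lower) in Tsc1-deficient and 4 of 71 (3 higher, 1 lower) in wild-type CD4 cells, against 35.3% and 31.9% of all genes. The shares of members were 8.45% and 5.63%. The low counts depended on the probe sets: with all sets of a gene averaged, 15 and 14 members were called, and with unsuffixed sets alone 12 and 10 of 31. The share of all genes called under these 2 rules was not counted, so whether members were called less often than other genes under them was not tested. With each probe set tested alone, 16.5% of the 133 member sets were called in each genotype. Of all single-gene probe sets 33.5% were called in Tsc1-deficient and 30.2% in wild-type cells. These comparisons share their arrays with the genotype comparisons in CD4 cells. Paralogs and Rps19bp1 made up 4 of the 6 and all of the 4. Among the 62 bright core genes 46 and 43 changes were negative, between -0.18 and 0.13 in Tsc1-deficient and between -0.14 and 0.07 in wild-type cells, with Rpl22 the lowest in both. The median change of the members was -0.020 in Tsc1-deficient and -0.013 in wild-type cells. The sign of the first turned to 0.024 after cyclic loess.

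Rps19bp1 rose in both genotypes. Its signal was 7.72, 7.65 and 7.47 at 4 h, against 6.98, 6.95 and 6.94 at 0 h in Tsc1-deficient CD4 cells. In wild-type CD4 cells it was 7.71, 7.82 and 7.62 at 4 h, against 7.02, 6.91 and 6.93 at 0 h. The times did not overlap. The changes were 0.65 ± 0.09 and 0.76 ± 0.09 (SE, limma adjusted p = 2.23e-05 and 5.07e-06). Rps27l rose as well, by 0.46 ± 0.11 in Tsc1-deficient and 0.66 ± 0.11 in wild-type cells (SE, limma adjusted p = 0.00353 and 0.000182). Its 4 h arrays, given above, lie above the 0 h arrays in each genotype.

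Rpl36al fell in both genotypes, while Rpl36a did not pass the test. Rpl36al read 11.94 on each of the 3 arrays at 4 h, against 12.40, 12.41 and 12.28 at 0 h in Tsc1-deficient CD4 cells. In wild-type CD4 cells it read 12.06, 12.18 and 12.09 at 4 h, against 12.37, 12.32 and 12.33 at 0 h. The changes were -0.42 ± 0.08 and -0.23 ± 0.08 (SE, limma adjusted p = 0.000353 and 0.0382). The change in wild-type cells was no longer called with any of 5 of the 6 wild-type CD4 arrays left out (all but 4 h replicate 2, -0.24 to -0.20, limma adjusted p = 0.068 to 0.12), after quantile normalization (-0.21, limma adjusted p = 0.0567) and with the compared groups fitted alone (limma adjusted p = 0.0523). Rpl36a differed by -0.12 and -0.10 (limma adjusted p = 0.315 and 0.386).

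Rpl7l1 was called on its brightest probe set in wild-type cells and on another set in both genotypes. The brightest set read 8.06, 7.90 and 7.57 at 4 h, against 7.64, 7.46 and 7.49 at 0 h in Tsc1-deficient CD4 cells, where 1 array at 4 h fell among those at 0 h. In wild-type CD4 cells it read 7.89, 7.90 and 7.90 at 4 h, against 7.34, 7.24 and 7.44 at 0 h. The changes were 0.31 ± 0.12 and 0.56 ± 0.12 (SE, limma adjusted p = 0.0574 and 0.00161). The difference between these responses was -0.24 ± 0.17 (SE, limma adjusted p = 0.646). A second, dimmer Rpl7l1 set read 6.51, 6.20 and 6.08 at 4 h, against 5.45, 4.95 and 5.28 at 0 h in Tsc1-deficient CD4 cells, and 6.21, 6.34 and 5.97 at 4 h, against 5.37, 5.37 and 4.78 at 0 h in wild-type CD4 cells. It rose by 1.04 ± 0.20 and 1.00 ± 0.20 (SE, limma adjusted p = 0.000527 and 0.000848, over all single-gene probe sets). The third Rpl7l1 set was called in neither genotype (0.24 and 0.30, limma adjusted p = 0.201 and 0.105). Rpl7 differed by 0.02 and 0.0013 (limma adjusted p = 0.925 and 0.995).

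Rpl22l1 fell after stimulation of Tsc1-deficient cells by 0.32 ± 0.09 on the log2 scale (SE, limma adjusted p = 0.00799). In wild-type cells its difference was -0.21 ± 0.09 (SE, limma adjusted p = 0.0875), which 3 alternatives called (limma adjusted p = 0.0166 to 0.04997). The response did not differ between genotypes beyond its error (-0.11 ± 0.13, SE, limma adjusted p = 0.804). Rpl22 differed by -0.18 in Tsc1-deficient and -0.14 in wild-type cells (limma adjusted p = 0.135 and 0.277).

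The 2 core genes called after stimulation are those represented by dim probe sets. Rpl14, a large subunit gene, read 6.86, 6.45 and 6.35 at 4 h, against 7.11, 7.12 and 6.998 at 0 h in Tsc1-deficient CD4 cells (-0.52 ± 0.12, SE, limma adjusted p = 0.00231). In wild-type CD4 cells it read 6.64, 6.96 and 6.73 at 4 h, against 7.05, 7.10 and 7.05 at 0 h (-0.29 ± 0.12, SE, limma adjusted p = 0.0808). Rps15a, a small subunit gene, read 4.31, 4.48 and 4.62 at 4 h, against 4.07, 3.98 and 3.91 at 0 h in Tsc1-deficient CD4 cells (0.49 ± 0.15, SE, limma adjusted p = 0.0134). In wild-type CD4 cells it read 4.38, 4.29 and 4.30 at 4 h, against 4.33, 4.10 and 3.69 at 0 h (0.28 ± 0.15, SE, limma adjusted p = 0.165). Times did not overlap except for Rps15a in wild-type cells. The Rps15a call was lost without Tsc1-deficient CD4 replicate 3 of either time (0.45 and 0.41, limma adjusted p = 0.0515 and 0.0633).

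Among the other pairs, Rpl39l differed by -0.55 ± 0.27 in Tsc1-deficient and -0.09 ± 0.27 in wild-type cells (SE, limma adjusted p = 0.146 and 0.857), and Rpl39 by -0.0003 and -0.09. Rpl3l differed by 0.09 and -0.04 and Rpl3 by -0.09 and -0.07, none of them called. On its brightest probe set Rps6 differed by -0.02 and -0.03 (limma adjusted p = 0.913 and 0.848).

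Limma called none of the 71 members for a stimulation response that differed between genotypes (0 of 71, 0 at an unadjusted p under 0.05, against 1.20% of all genes). The fitted differences of response ran from -0.45 to 0.20, and 0 of 71 is near the share of all genes. None was called between CD8 and CD4 cells at 0 h in Tsc1-deficient cells (0 of 71, 0 at an unadjusted p under 0.05, against 6.68%) or in wild-type cells (0 of 71, 1 at an unadjusted p under 0.05, against 5.04%). That 1 gene was Rpl14, named after its value was seen, at 7.40 and 7.47 in CD8 and 7.05, 7.10 and 7.05 in CD4 cells (0.37 ± 0.14, SE, limma adjusted p = 0.164). Rpl14 was called there with array weights and when Tsc1-deficient CD4 4 h replicate 1 alone or both arrays with a high Gapdh difference were left out. Leaving out that replicate or both arrays also made Rpl14 a second member called lower in Tsc1-deficient CD4 cells at 4 h. The difference of genotype effects between the lineages was called for 0 members (0 at an unadjusted p under 0.05) and for 0.117% of all genes, so the members do not stand apart there. Rps6 differed between CD8 and CD4 cells by -0.04 in Tsc1-deficient and -0.03 in wild-type cells, Rpl22l1 by -0.01 and -0.03, and Rps27l by 0.14 and 0.07. Rpl36al differed by 0.06 in both genotypes, Rpl7l1 by -0.04 and 0.02, Rpl39l by 0.10 and 0.18 and Rpl3l by 0.15 and -0.08.

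Ribosomal protein genes have many processed pseudogenes and near-identical copies, and 33 of the 71 members have more than 1 probe set (133 in all). Of the brightest sets, 56 of 71 carry the array maker's suffix a, s or x, which marks sets that can match several transcripts. Where each set lies in its transcript is not given in the tables used here. Each set was therefore also tested alone, an alternative chosen after seeing the data, with p-values adjusted over all 28898 single-gene probe sets. The 62 core genes have 27 other sets with a mean of at least 12, and 0 of these were called in the 5 comparisons of genotype or time, with changes between -0.17 and 0.10. They also have 27 sets with a mean under 10, and many of those moved.

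Of these 27 dim sets, limma called 4 lower and 0 higher in Tsc1-deficient than in wild-type CD8 cells, 4 lower and 1 higher in CD4 cells at 4 h, and 2 lower and 0 higher in CD4 cells at 0 h. That is 14.8%, 18.5% and 7.41%, against 4.57%, 7.59% and 4.40% of all single-gene probe sets. After stimulation 11 were lower and 2 higher in Tsc1-deficient CD4 cells, and 11 lower and 4 higher in wild-type CD4 cells. That is 48.1% and 55.6%, against 33.5% and 30.2%. The sets were picked as dim sets of genes with a bright one, several share a gene, and the genes named next were chosen after their values were seen. No brightest set of these genes was called, and which set follows the gene's main transcript was not tested. Without both arrays with a high Gapdh difference the counts were 4, 5, 3, 13 and 16, in the same order. The count in CD8 cells was 2 without wild-type CD8 replicate 1 or Tsc1-deficient CD8 replicate 2, and 1 without wild-type CD8 replicate 2.

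The dimmer Rpl22 set was lower both without Tsc1 and after stimulation. It read 7.01 and 6.61 in Tsc1-deficient, against 8.09 and 8.03 in wild-type CD8 cells. At 4 h it read 5.62, 5.80 and 5.62 in Tsc1-deficient, against 6.29, 6.39 and 6.33 in wild-type CD4 cells. At 0 h it read 7.19, 7.23 and 7.23 in Tsc1-deficient, against 7.83, 7.78 and 7.74 in wild-type CD4 cells. No groups overlapped, by genotype or by time.

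Its genotype differences were -1.25 ± 0.12 in CD8 cells (0.420-fold), -0.66 ± 0.10 in CD4 cells at 4 h (0.634-fold) and -0.57 ± 0.10 in CD4 cells at 0 h (0.675-fold; SE), with limma adjusted p of 1.93e-05, 0.000756 and 0.00328. Stimulation changed it by -1.54 ± 0.10 in Tsc1-deficient and -1.45 ± 0.10 in wild-type cells (SE, limma adjusted p = 5.55e-09 and 1.42e-08). All 5 calls were kept with any 1 array left out and without both arrays with a high Gapdh difference. The larger genotype difference in CD8 cells than in CD4 cells was not called (-0.69 ± 0.16, SE, limma adjusted p = 0.21). This set carries the suffix s.

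Rps13, Rpl15 and Rps20 had dim sets that were lower in Tsc1-deficient cells in at least 1 comparison. Those of Rps13 and Rpl15 also fell on stimulation, and those of Rps20 did not. The Rps13 set, for a small subunit protein, fell by 1.17 in Tsc1-deficient and by 1.61 in wild-type CD4 cells on stimulation on the log2 scale, and at 0 h it was lower in Tsc1-deficient cells by a difference of -0.64 ± 0.11 (SE, limma adjusted p = 0.0021). It read 7.05, 7.28 and 7.27 in those Tsc1-deficient cells, against 7.92, 7.75 and 7.85 in wild-type cells. The Rpl15 set, for a large subunit protein, was lower in Tsc1-deficient cells by -0.69 ± 0.13 in CD8 cells and -0.75 ± 0.10 in CD4 cells at 4 h (SE, limma adjusted p = 0.00499 and 0.000328). At 4 h it read 7.12, 7.37 and 7.32 in Tsc1-deficient, against 8.13, 8.01 and 7.92 in wild-type CD4 cells. The Rpl15 call in CD8 cells was lost without wild-type CD8 replicate 2 (-0.63, limma adjusted p = 0.06). The Rpl15 set fell by 1.07 in Tsc1-deficient and by 0.61 in wild-type cells on stimulation on the log2 scale. The 2 dim sets of Rps20 were lower by -0.92 and -0.72 in CD8 cells and by -0.69 and -0.85 in CD4 cells at 4 h. Both Rps20 calls in CD8 cells were lost without Tsc1-deficient CD8 replicate 2 (-0.79 and -0.52, limma adjusted p = 0.0861 and 0.213) and without either wild-type CD8 array. The first of these sets was also lost at 4 h without Tsc1-deficient or wild-type CD4 4 h replicate 1 (-0.57 and -0.52, limma adjusted p = 0.0516 and 0.0665).

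Rps24 and Rpl13 had dim sets that rose on stimulation in both genotypes. In wild-type cells 1 dim set each of Rps10 (0.90) and Rps20 (0.47) rose as well. The Rps20 set differed by -0.10 in Tsc1-deficient cells, against 0.47 ± 0.14 in wild-type cells (SE, limma adjusted p = 0.691 and 0.0201), and this call was lost without wild-type CD4 0 h replicate 1 or 2 or wild-type CD4 4 h replicate 1 (0.37 to 0.46, limma adjusted p = 0.053 to 0.106). The difference between the Rps20 responses was not called (-0.57 ± 0.20, SE, limma adjusted p = 0.285). The Rps24 set, for a small subunit protein mutated in Diamond-Blackfan anaemia, read 6.99, 7.12 and 7.16 at 4 h, against 4.08, 4.08 and 3.87 at 0 h in Tsc1-deficient CD4 cells. In wild-type CD4 cells it read 7.43, 7.22 and 7.13 at 4 h, against 4.23, 4.61 and 4.53 at 0 h. The changes were 3.08 ± 0.15 (8.46-fold) and 2.80 ± 0.15 (6.96-fold; SE, limma adjusted p = 2.09e-10 and 6e-10). The Rpl13 set rose by 1.54 ± 0.12 in Tsc1-deficient and 1.11 ± 0.12 in wild-type cells (SE, limma adjusted p = 3.24e-08 and 1.78e-06), and at 4 h it was higher in Tsc1-deficient cells by 0.67 ± 0.12 (SE, limma adjusted p = 0.00224). A dimmer set of Rps6 fell by 0.53 and 0.51 on the log2 scale in Tsc1-deficient and wild-type cells (limma adjusted p = 0.00193 and 0.0031).

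**Figure D4:**
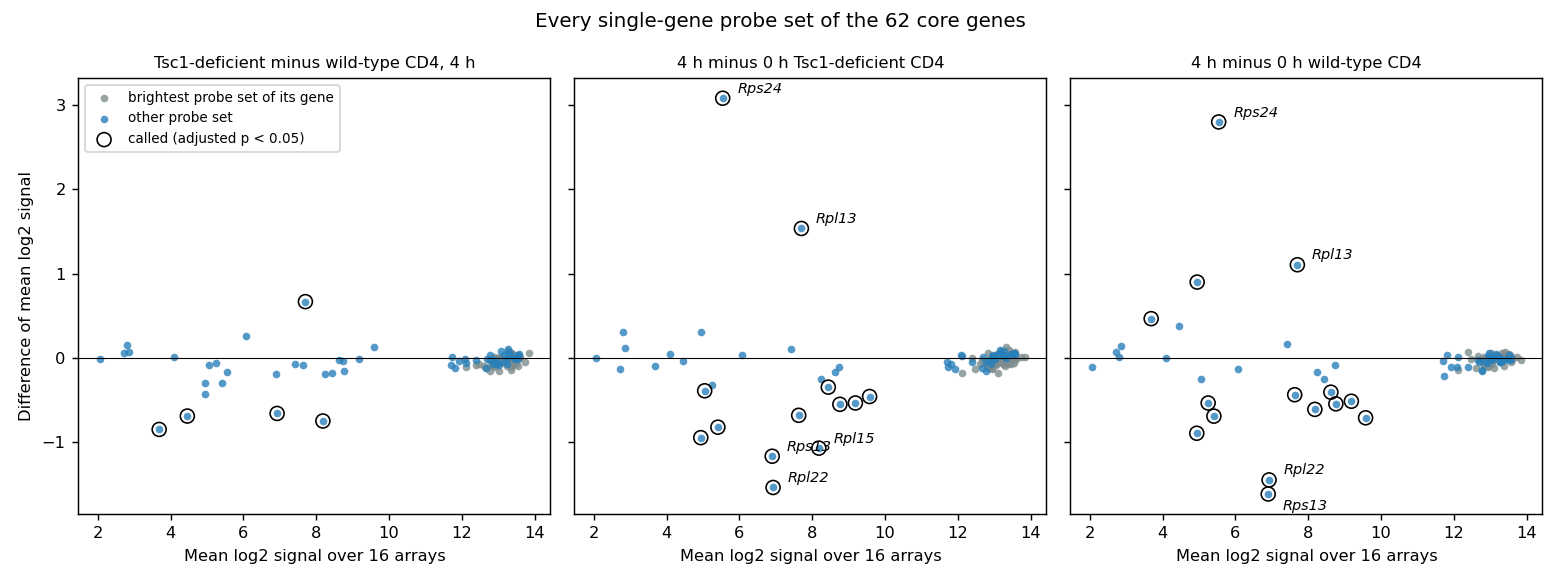
Mean log2 signal over 16 arrays (horizontal) against the difference of mean log2 signal (vertical) for each single-gene probe set of the 62 core genes, with the brightest set of a gene in grey, other sets in blue and called sets ringed. Sets with a mean of at least 12 lie near 0 in each panel, and the ringed sets are those with a mean under 10, and the farthest from 0 after stimulation are Rps24 upward and Rpl22 and Rps13 downward.

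Lists of related genes were read the same way. Rpsa and Fau encode small subunit proteins under other symbols, and 0 of these 2 were called in any comparison. Other genes with TOP mRNAs, 18 measured, include translation factors. Limma called 1 of 18 lower in Tsc1-deficient CD8 cells, 2 in CD4 cells at 4 h and 1 in CD4 cells at 0 h, and 0 higher. These are 5.56%, 11.1% and 5.56%, against 5.82%, 9.45% and 5.83% of all genes. After stimulation 7 of 18 were lower in Tsc1-deficient and 5 in wild-type CD4 cells, and 0 higher, which is 38.9% and 27.8%, against 35.3% and 31.9% of all genes. The list's median change was -0.24 in Tsc1-deficient and -0.14 in wild-type cells, against -0.017 and -0.011 for all genes and -0.10 and -0.07 for genes above the table median.

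The TOP genes called between genotypes were Hnrnpa1, an RNA-binding protein, in CD8 cells (-0.61), Nap1l1, a histone chaperone, in CD4 cells at 4 h (-0.52) and at 0 h (-0.45), and Eif4b, a helicase cofactor, in CD4 cells at 4 h (-0.37). After stimulation the largest were Hnrnpa1 (-0.77), Eif4b (-0.63) and Eif3e (-0.59), a subunit of initiation factor 3, in Tsc1-deficient cells, and Hnrnpa1 (-0.78), Eif3k (-0.39) and Eef1d (-0.34), an elongation factor subunit, in wild-type cells. Between lineages Eif3f was lower in CD8 than in CD4 cells without Tsc1 (-0.55, limma adjusted p = 0.0246), and 0 of 18 were called in wild-type cells.

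Of 27 ribosome biogenesis genes, limma called 1 higher and 1 lower in Tsc1-deficient CD8 cells, 1 and 2 in CD4 cells at 4 h, and 1 and 1 in CD4 cells at 0 h. These are 7.41%, 11.1% and 7.41%, against 5.82%, 9.45% and 5.83% of all genes. After stimulation 5 were higher and 8 lower in Tsc1-deficient cells, and 2 higher and 6 lower in wild-type cells, which is 48.1% and 29.6%, against 35.3% and 31.9% of all genes. Nop56, a core protein of box C/D ribonucleoproteins, rose by 0.87 and 0.35, and Ubtf, the RNA polymerase I factor, changed by -1.52 and -2.23. Both were chosen after their values were seen. The stimulation response differed between genotypes for Ubtf (0.71 ± 0.14, SE, limma adjusted p = 0.016) and Wdr12 (-0.87 ± 0.17, SE, limma adjusted p = 0.0191). These are the only 2 of the 27 (7.41%), on 1 probe set per gene, against 1.20% of all genes. The 0 of 71 ribosomal protein genes called there is near the share of all genes.

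**Figure D5:**
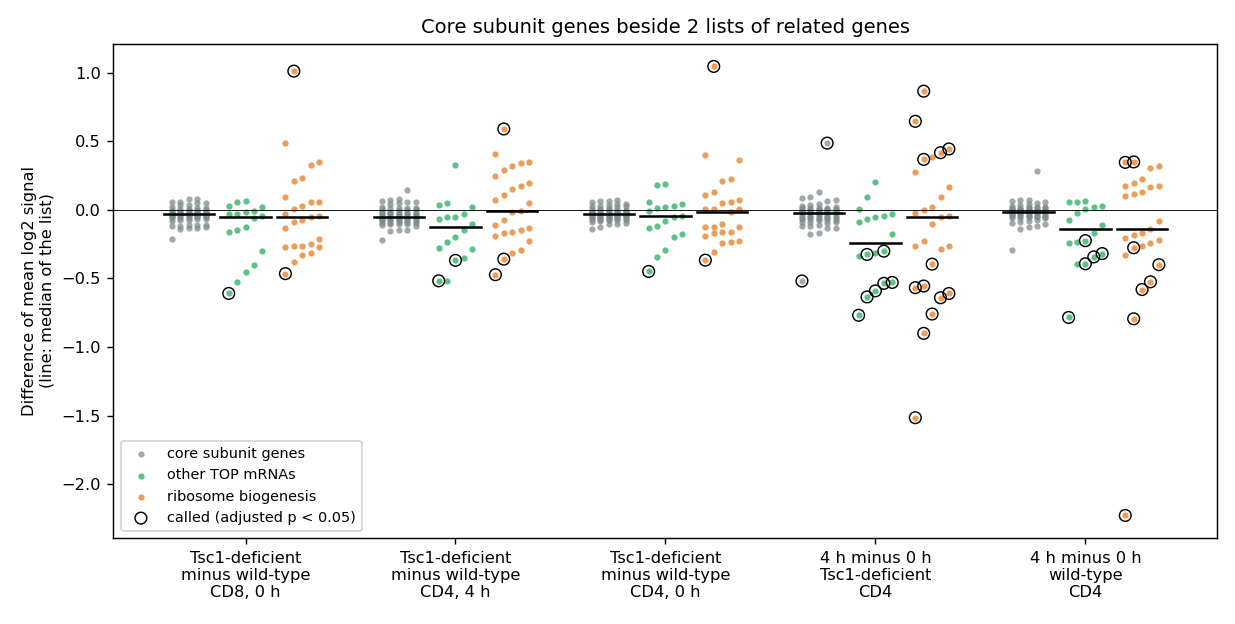
Difference of mean log2 signal for the 64 core genes (grey), 18 other genes with TOP mRNAs (green) and 27 ribosome biogenesis genes (orange) in 5 comparisons, with the median of each list as a black line and called genes ringed. Core genes lie close to 0 apart from Rpl14 and Rps15a after stimulation, and all ringed TOP genes lie below 0.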

How the data were processed

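The deposited values are log2 signals of Affymetrix arrays, which the authors made with RMA in Partek 6.5, per the submitters' processing notes. They were used as deposited. Near the top of the scale such arrays can understate fold changes. Members and gene lists were chosen with earlier results of these data known. Probe sets naming 1 gene were kept (28898 of 45141), and each gene took its brightest set. All 16 arrays in 6 groups entered 1 linear model, with contrasts of group means (lmFit and eBayes, limma 3.58.1 in R 4.3.3, checked on simulated data) and Benjamini-Hochberg adjustment over all 17097 genes. Precision is limited by 2 or 3 arrays a group. Named are called members, Rps6, paralog pairs and the 3 largest called TOP genes per comparison. All 71 members matched RefSeq by Entrez identifier. Over all genes, arrays with adjacent label numbers deviated together little (r = 0.0301 to 0.0769), so the main fit did not treat them as pairs. Their mean neutrophil signal did go together. For replicates 1 to 3 of Tsc1-deficient CD4 cells it was 5.57, 5.26 and 7.459 at 0 h and 6.03, 5.60 and 7.255 at 4 h. In wild-type CD4 cells it was 4.06, 3.68 and 5.095 at 0 h and 3.71, 3.46 and 4.19 at 4 h. Whether such arrays share a source of cells was not tested. Alternatives were other scalings, filters, probe set rules, priors and left-out arrays.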

Additional observations from a re-analysis of the deposited data

How the results depend on the processing

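The Rpl22l1 calls in CD4 cells at both times and the Rps19bp1 and Rps27l calls after stimulation were kept under all alternatives that could be fitted and with any 1 array left out. Rpl22l1, Rpl36al and other genes without an unsuffixed probe set have no value under the rule of unsuffixed sets. Rpl22l1 and Rps19bp1 have 1 probe set each, so the probe set rules could not test their calls. With probe sets averaged, the members called were 5 in CD8 cells between genotypes, 5 in CD4 cells at 4 h, and 15 and 14 after stimulation of Tsc1-deficient and wild-type CD4 cells. Their median change was then -0.0396 between genotypes in CD4 cells at 0 h, -0.0345 after stimulation of Tsc1-deficient cells, and 0.021 and 0.035 between CD8 and CD4 cells of Tsc1-deficient and wild-type mice. With probe sets that carry no a, s or x suffix (31 members), the calls were 2 and 1 between genotypes in CD4 cells at 4 h and 0 h, 12 and 10 after stimulation in Tsc1-deficient and wild-type cells, and 2 and 2 between lineages. The medians were then -0.0748 and -0.0469 in CD4 cells at 4 h and 0 h, -0.0386 and -0.0402 after stimulation, 0.0555 and 0.0811 between lineages, and -0.02 for the genotype effect in CD8 minus CD4 cells. Averaging brings in all 133 probe sets of the members, and the suffix rule tests fewer members. Under either rule the share of all genes called was not counted.

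Quantile normalization gave medians of -0.0328 in CD4 cells at 4 h, -1e-04 at 0 h, and -0.0074 between lineages in Tsc1-deficient cells. Median centring gave -0.0659 in CD4 cells at 4 h, -0.0325 for the difference of stimulation responses and 0.004 between lineages in wild-type cells. Cyclic loess gave -0.0042 in CD8 cells, -0.02 in CD4 cells at 4 h, 0.0241 after stimulation of Tsc1-deficient cells, 0.0144 for the difference of responses, 0.0236 between lineages in Tsc1-deficient cells and 0.0226 for the difference of genotype effects. The cause of these shifts was not tested. An intensity trend with a robust prior called 10 members after stimulation of Tsc1-deficient cells. Array weights called 1 in CD8 cells between genotypes and 1 between lineages in wild-type cells, and the compared groups alone called 0 in CD8 cells. Leaving out both arrays with a high Gapdh difference gave 2 calls at 4 h and 1 between lineages in wild-type cells, with medians of -0.0134 in CD8 cells and 0.0224 between lineages in Tsc1-deficient cells, where the Gapdh covariate gave 0.0215.

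With 1 array left out at a time, calls between genotypes were 0 to 2 in CD8 cells, 1 to 2 in CD4 cells at 4 h and 1 to 2 at 0 h, and 0 to 1 between lineages in wild-type cells. After stimulation they were 6 to 8 in Tsc1-deficient and 3 to 5 in wild-type cells. Medians then ran from -0.0407 to -0.0134 in CD8 cells, -0.0392 to -0.0206 in CD4 cells at 0 h, -0.0461 to -0.0154 after stimulation of Tsc1-deficient cells, -0.0326 to -0.0097 for the difference of responses and 0 to 0.0224 between lineages in Tsc1-deficient cells. With the replicate block as a random effect (correlation 0.0304) the calls were 2 in CD8 cells, 1 at 4 h, 2 at 0 h, and 6 and 4 after stimulation of Tsc1-deficient and wild-type cells, and no other call changed.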
